A study of Mus musculus with 18 samples.

Results

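Pamr1, Cck, Slc2a4, Colgalt2, Postn, Xkr4, Ide and Ephx2 are 8 of the 52636 genes counted in each library, picked because their RNA level in Y541S N cells of the mouse mammary gland differed from that in WT N, D542G N or Y541S ML cells. The members were selected on the values of those 3 comparisons, which are therefore given here as a description, with no test. All 8 genes passed the filter on low counts that left 18298 genes for testing. These 8 genes were tested only in comparisons that did not use the Y541S N mean, while other genes were tested in all comparisons. The spread behind each test was estimated over all 18 libraries, those of Y541S N included.

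RNA was sequenced from 18 libraries of sorted mouse mammary cells, 3 biological replicates in each of 6 groups. Y541S and D542G name amino acid changes in estrogen receptor alpha (ERα), which Esr1 encodes, and WT mice carry neither. ML is the gate of mature luminal cells and N is a second gate. The groups were Y541S N, D542G N, WT N, Y541S ML, D542G ML and WT ML. Mice of every group were 6 months old, carried hormone pellets (estradiol, E2, and progesterone, P4), and were given the ERα antagonist giredestrant orally at 30 mg/kg per day for 4 days, so no group shows these genes without hormone or without the antagonist. Whether the Esr1 changes were present in all tissues or in chosen cells is not given in the labels. P-values measure the spread between libraries.

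The mammary duct has an inner layer of luminal cells, some of which carry ERα, and an outer layer of basal, or myoepithelial, cells that contract and lay down the basement membrane. Estrogen acts on the gland largely through ERα in luminal cells, which signal to their neighbours with secreted factors. Amino acid changes in the ligand-binding part of ERα, found in human breast tumours after endocrine therapy, can make the receptor active without hormone. The 8 genes have separate roles. Postn and Pamr1 encode secreted proteins, and Colgalt2 encodes an enzyme that modifies collagen. Xkr4 encodes a membrane protein that moves phospholipids, Slc2a4 a glucose transporter and Cck a peptide hormone, while Ide and Ephx2 encode enzymes that degrade peptides and epoxide lipids.

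The promoters of Cck and Postn are shown because these genes moved in opposite directions between the gates outside Y541S, as described further on. Both stretches are the 250 bases before the start of transcription, from RefSeq on GRCm38.p6, and capitals mark the one motif found in each. That of Cck lies at chr9:121495695-121495944 (− strand) and that of Postn at chr3:54360857-54361106 (+ strand).
Cck: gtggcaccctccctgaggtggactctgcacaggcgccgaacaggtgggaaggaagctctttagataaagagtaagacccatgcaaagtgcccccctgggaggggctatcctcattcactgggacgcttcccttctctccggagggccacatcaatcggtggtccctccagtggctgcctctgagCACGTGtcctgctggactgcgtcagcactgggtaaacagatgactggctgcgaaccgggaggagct
Postn: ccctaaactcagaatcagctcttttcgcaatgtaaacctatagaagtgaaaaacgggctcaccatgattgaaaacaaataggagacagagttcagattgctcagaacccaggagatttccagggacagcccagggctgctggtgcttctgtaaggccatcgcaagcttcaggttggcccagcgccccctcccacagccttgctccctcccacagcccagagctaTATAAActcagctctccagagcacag

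The search covered both strands for TATAAA (the TATA box), for GGTCA (one arm of the ERα site), for CACGTG (an E-box), TGANTCA (the AP-1 site), GGGCGG (the Sp1 site) and the CArG box of serum response factor. None of these motifs contains another. Cck held CACGTG once, at bases 66 to 61 before the start, a motif found in 6.02% of 32851 promoter windows of the same length. Postn held TATAAA once, at bases 26 to 21 before the start, against 12.4% of all windows. Neither window held GGTCA (35.2% of all windows), TGANTCA (6.75%), GGGCGG (32.7%) or the CArG box (1.47%). The promoter table matched 3 of the 8 genes, Cck, Postn and Ide, and no other promoter was used.

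Libraries held 34797778 to 49507144 gene counts, with a count for 18353 to 20807 genes. Values are CPM, the counts scaled to a common library total after TMM normalisation. The 10 markers of basal cells, keratins and smooth muscle genes among them, summed to 21361 to 37198 CPM in Y541S N and 14731 to 16569 CPM in D542G N, compared with 6135 to 39706 CPM in WT N. The same sum was 155 to 3094 CPM in Y541S ML, 188 to 442 CPM in D542G ML and 319 to 9535 CPM in WT ML. The labels give mature luminal cells as the source of all samples, while Krt14, a basal keratin, was the most abundant of these markers in each N group. The 7 luminal markers summed to 2400 to 4756 CPM in Y541S N, 4792 to 6380 CPM in D542G N, 2258 to 16714 CPM in WT N and 14465 to 29867 CPM over the ML libraries. WT N 3 stood apart within its group with the 16714 CPM of luminal markers and with the lowest basal sum, 6135 CPM. Y541S N 3 held 12746 CPM of 10 markers of differentiating epidermis, where Y541S N 1 and 2 had at most 15.3 CPM. In WT N that sum was 3999, 10548 and 519 CPM, and in D542G N it was 32.4, 838 and 23.9 CPM. Y541S ML 3 held 2016 CPM of these markers. Y541S N 2 held 23690 CPM of luminal progenitor and milk genes, where Y541S N 1 and 3 had 474 and 582 CPM. In these bulk libraries, fewer cells of a type and less RNA per cell cannot be told apart.

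**Figure D1:**
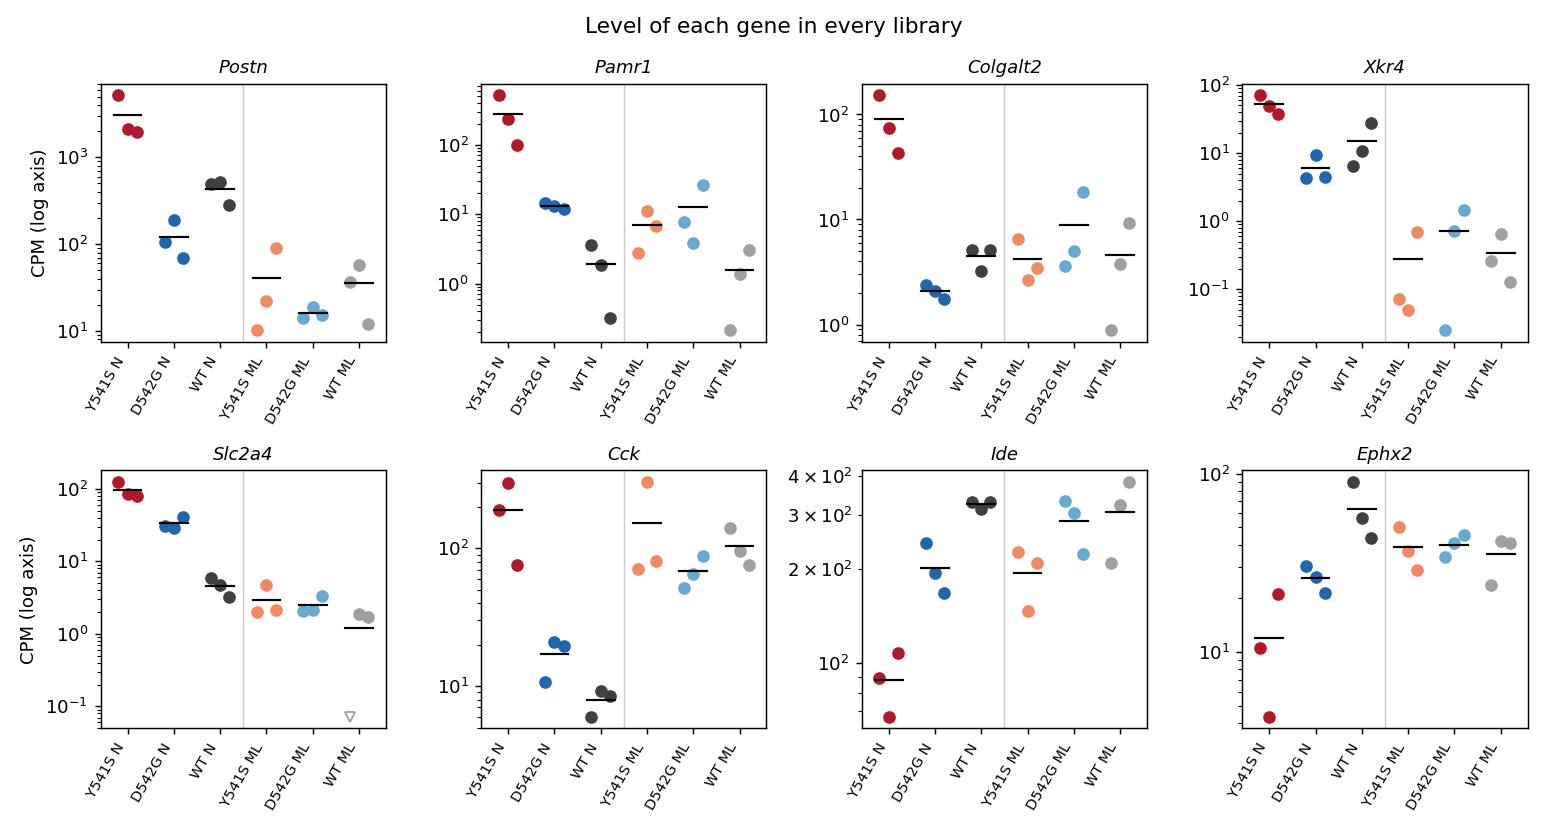
Level of each of the 8 genes in every library, in CPM on a log axis, with 3 libraries per group as points and the group mean as a line; the open triangle is a count of 0 drawn at the level of 3 counts. The 3 Y541S N libraries lie above all 15 others for Postn, Pamr1, Colgalt2, Xkr4 and Slc2a4 and below all 15 for Ide and Ephx2, while Cck overlaps the ML groups.

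In Y541S N, 5 of the genes were above all 15 other libraries in each of the 3 libraries, as were 2.4% of the 18298 genes tested. These were Pamr1, Slc2a4, Colgalt2, Postn and Xkr4. Ide and Ephx2 were below all 15 other libraries in each, as were 0.596% of genes. Cck was the exception, since its Y541S N range lay above those of D542G N and WT N but within the reach of all 3 ML groups. As the members were picked for such differences, nothing is read from these shares. Relatives and neighbours of the members, described further on, are read against the share of all genes tested that edgeR's quasi-likelihood test called (adjusted p under 0.05). That share was 1.14% in Y541S N minus WT N, 1.43% in Y541S N minus D542G N and 6.95% in Y541S N minus Y541S ML.

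Postn (ENSMUSG00000027750, chromosome 3, 54361109–54391037, + strand of GRCm38) encodes periostin, a matrix protein with fasciclin domains that binds integrins and collagen. Its level was 5162, 2092 and 1936 CPM in the Y541S N libraries, 105, 192 and 69.1 CPM in D542G N, and 495, 525 and 285 CPM in WT N. In ML it was 10.3, 22.2 and 90.5 CPM in Y541S, 14.0, 19.0 and 15.3 CPM in D542G, and 36.7, 57.0 and 12 CPM in WT. The 3 N groups did not overlap each other, with Y541S highest and D542G lowest, and every N library exceeded the ML library of its genotype and number. The Y541S N mean of 3063 ± 1819 CPM (SD, n = 3) was 25.1 times the D542G N mean of 122 ± 63.3 CPM, 7.04 times the WT N mean of 435 ± 131 CPM and 74.7 times the Y541S ML mean of 41.0 ± 43.3 CPM. The ML groups overlapped each other, and D542G N overlapped Y541S ML.

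The gate difference of Postn was present without Y541S. Postn rose in D542G N against D542G ML, with a log2 fold change of 2.92 ± 0.75 (SE, edgeR's quasi-likelihood test, Benjamini-Hochberg adjusted p = 0.0252). It rose in WT N against WT ML by 3.63 ± 0.77 on the log2 scale (edgeR, adjusted p = 0.0205), and by 3.86 without WT N 3 (adjusted p = 0.0065). D542G N was lower than WT N in all 3 libraries, and the difference of −1.83 ± 0.71 was not called by edgeR (adjusted p = 0.188) and was called by limma-voom (−1.93, adjusted p = 0.0188). The D542G gate call was lost when any D542G ML library, D542G N 1 or D542G N 2 was left out (adjusted p up to 0.102). The WT call was lost without WT ML 1, WT ML 3, WT N 1 or WT N 2 and when only those groups were fitted (adjusted p up to 0.108).

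Postn belongs to the matricellular proteins, which sit in the matrix and signal to cells rather than build fibres. Of 18 other listed genes of this kind, 5 were called higher and 1 lower in Y541S N minus Y541S ML, with a median log2 fold change of 2.17 over the list against −0.02 over all genes tested. Sparc, which binds collagen, was higher by 4.52 ± 0.56 (edgeR, adjusted p = 0.000363), and Ccn5, a relative of connective tissue growth factor, was lower by −3.84 ± 0.62 (0.00213). The list changed with gate in the other genotypes too, with 5 higher and 1 lower in D542G N minus D542G ML (median 1.92) and 4 higher and 1 lower in WT N minus WT ML (median 2.35). Ccn5 was lower in both, and Sparc was higher by 3.17 ± 0.53 in WT (edgeR, adjusted p = 0.00735). Against D542G N, 2 of the 18 were higher and none lower (median 1.41 against 0.04), with Sparc at 3.18 ± 0.53 (adjusted p = 0.00845). Against WT N, Fbln2 and Fbln5 were called higher and none lower (median 0.24 against −0.04). Tgfbi, the closest relative of periostin, was called higher with gate in D542G and WT, as Postn was, and was not called in Y541S. Per kb of exon, Tgfbi stood at 51.9 CPM in Y541S N, 31.1 in D542G N and 176 in WT N. Postn stood at 352, 14.0 and 50 CPM per kb in the same groups, so D542G N was lowest for both and the order of the other N groups differed. The Tgfbi libraries varied widely, with 196 ± 248 CPM (SD, n = 3) in Y541S N and 663 ± 493 CPM in WT N.

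Pamr1 (ENSMUSG00000027188, chromosome 2, 102550012–102643041, + strand) encodes a secreted protein with EGF-like, CUB and sushi domains and a peptidase-like part, named for its link with muscle regeneration. It stood at 513, 231 and 97.9 CPM in Y541S N, 14.6, 13.1 and 11.7 CPM in D542G N, and 3.55, 1.84 and 0.321 CPM in WT N. The ML libraries held 2.78, 11.1 and 6.73 CPM in Y541S, 7.66, 3.80 and 26.5 CPM in D542G, and 0.216, 1.38 and 3.05 CPM in WT. The 3 N groups were again apart, here with D542G between Y541S and WT, and the Y541S N libraries themselves differed 5.25-fold. Y541S N averaged 281 ± 212 CPM (SD, n = 3), which is 21.4 times the D542G N mean of 13.1 ± 1.46, 148 times the WT N mean of 1.90 ± 1.61 and 40.8 times the Y541S ML mean of 6.88 ± 4.17 CPM. Below Y541S N, each group overlapped the next in order, from D542G N through D542G ML, Y541S ML and WT N to WT ML.

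No comparison without Y541S N called Pamr1. D542G N minus WT N was 2.78 ± 0.98 on the log2 scale (edgeR, adjusted p = 0.145), and DESeq2 called it at an adjusted p of 0.0235. D542G ML minus WT ML, whose libraries played no part in choosing the genes, was 3.03 ± 0.99 (adjusted p = 0.792, unadjusted p = 0.008 by edgeR's quasi-likelihood test), with all 3 D542G ML libraries above all 3 WT ML libraries. It was 1.89 without D542G ML 3, which held 26.5 CPM, and 4.0 without WT ML 3. The gate differences were 0.05 ± 0.90 in D542G (adjusted p = 0.986) and 0.30 ± 0.94 in WT (adjusted p = 0.889), and 1 of the 3 same-numbered pairs in each genotype went the other way.

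Colgalt2 (ENSMUSG00000032649, chromosome 1, 152399830–152510695, + strand) encodes a galactosyltransferase that adds galactose to hydroxylysine of collagen in the endoplasmic reticulum. Its level was 152, 75.1 and 42.8 CPM in Y541S N, 2.38, 2.08 and 1.74 CPM in D542G N, and 5.10, 3.23 and 5.13 CPM in WT N. In ML it was 6.56, 2.67 and 3.48 CPM in Y541S, 3.62, 4.99 and 18.2 CPM in D542G, and 0.889, 3.76 and 9.25 CPM in WT. Y541S N was thus the single group above 20 CPM and D542G N the lowest of the 6, below every library of WT N, Y541S ML and D542G ML. On average Y541S N held 90.0 ± 56.1 CPM (SD, n = 3), 43.6 times the D542G N mean of 2.06 ± 0.321 CPM, 20.0 times the WT N mean of 4.49 ± 1.09 CPM and 21.2 times the Y541S ML mean of 4.24 ± 2.05 CPM. In D542G, N was lower than ML by −2.11 ± 0.75 on the log2 scale (edgeR, adjusted p = 0.0922, not called; DESeq2 adjusted p = 0.0216). Without D542G ML 3, which held 18.2 CPM, it was lower by −1.06 (edgeR, adjusted p = 0.396). In WT the gates differed by −0.05 ± 0.72 (adjusted p = 0.982). The D542G gate change minus that of WT was −2.07 ± 1.03 and not called (edgeR interaction, adjusted p = 0.494). A pseudogene, Gm15618, lies within the span of Colgalt2 on the other strand.

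Colgalt1, which encodes the other enzyme of this kind, was level by comparison. Per kb of exon it stood at 47.6 CPM in Y541S N, 66.0 in D542G N and 37.1 in WT N, while Colgalt2 stood at 21.2, 0.486 and 1.06 CPM per kb. Of 23 other listed genes that modify or crosslink collagen, 9 were called higher and none lower in Y541S N minus Y541S ML (median 1.16, against −0.02 over all genes). Crtap, a cofactor of prolyl 3-hydroxylation, was higher by 1.81 ± 0.16 there (edgeR, adjusted p = 6.61e-05), by 1.11 ± 0.16 against WT N (0.0048) and by 0.70 ± 0.16 against D542G N (0.039). Against WT N, Crtap, Fkbp10 and P3h3 were called higher and none lower (median 0.75 against −0.04), and against D542G N Crtap alone was called (median 0.56 against 0.04). The list also changed with gate elsewhere, with 7 higher and 1 lower in D542G N minus D542G ML and 4 higher and none lower in WT N minus WT ML.

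Xkr4 (ENSMUSG00000051951, chromosome 1, 3205901–3671498, − strand) encodes a membrane protein of the XK family that, once cleaved by caspases, lets phosphatidylserine reach the cell surface. It stood at 70.4, 49.3 and 37.3 CPM in Y541S N, 4.35, 9.31 and 4.50 CPM in D542G N, and 6.56, 10.7 and 28.0 CPM in WT N. In ML it was 0.0713, 0.05 and 0.70 CPM in Y541S, 0.0253, 0.709 and 1.45 CPM in D542G, and 0.264, 0.637 and 0.128 CPM in WT, which is 1 to 70 counts per library. The gates were apart in every genotype, and within N only Y541S stood clear, since D542G N and WT N overlapped. Y541S N averaged 52.3 ± 16.7 CPM (SD, n = 3), or 8.64 times the D542G N mean of 6.06 ± 2.82 CPM and 3.46 times the WT N mean of 15.1 ± 11.4 CPM. WT N 3, the library with the high luminal sum, was the highest of WT N.

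Xkr4 rose in WT N against WT ML, with a log2 fold change of 5.46 ± 1.18 (edgeR, adjusted p = 0.0226) that was 4.65 without WT N 3 (adjusted p = 0.0146). This call was lost without any one of the WT ML libraries, without WT N 2 or with only those groups fitted (adjusted p up to 0.104). In D542G the gate difference of 3.04 ± 1.05 was not called (adjusted p = 0.0832), while DESeq2 called it at 3.05 (adjusted p = 0.0125) and limma-voom at 4.70 (0.0027). The D542G gate change minus that of WT was −2.41 ± 1.42 and not called (edgeR interaction, adjusted p = 0.576). D542G N minus WT N was −1.32 ± 0.98 (adjusted p = 0.508), and −0.51 without WT N 3. In all, 9 annotated genes lie within the span of Xkr4, among them the antisense RNA Gm1992, and the sources do not say how reads shared by such genes were counted, so the counts of Xkr4 may hold or lack some of these reads. Its relatives were low: per kb of exon Xkr5, Xkr6 and Xkr8 stood at 0.153, 0.272 and 0.236 CPM in Y541S N, against 8.59 CPM per kb for Xkr4. Of 12 other listed genes of the XK family and of phospholipid scrambling, 1 was called higher and 3 lower in Y541S N minus Y541S ML. Nptn was the one called higher, at 1.0 ± 0.20 (edgeR, adjusted p = 0.00909). Bsg was among those called lower, with a mean of 662 CPM in Y541S N and 1151 CPM in Y541S ML. Atp11a, a flippase that works the other way, was lower at −1.15 ± 0.18 (edgeR, adjusted p = 0.00161), and was also called lower with gate in D542G and WT. None of the 12 was called against D542G N or WT N.

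Slc2a4 (ENSMUSG00000018566, chromosome 11, 69942539–69948188, − strand) encodes GLUT4, the glucose transporter that insulin brings to the surface of fat and muscle cells. It stood at 124, 84.4 and 80.3 CPM in Y541S N, 30.3, 28.8 and 41.0 CPM in D542G N, and 5.96, 4.68 and 3.21 CPM in WT N. In ML it was 2.0, 4.65 and 2.12 CPM in Y541S, 2.05, 2.13 and 3.29 CPM in D542G, and 0, 1.88 and 1.69 CPM in WT, where the count of 0 allows up to 0.0721 CPM. The N groups ran in the order Y541S, D542G, WT with no overlap, and all ML libraries lay below 5 CPM. The mean of 96.3 ± 24.3 CPM in Y541S N (SD, n = 3) was 2.89 times the D542G N mean of 33.4 ± 6.63 CPM, 20.9 times the WT N mean of 4.62 ± 1.38 CPM and 33.0 times the Y541S ML mean of 2.92 ± 1.5 CPM.

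Slc2a4 also differed between the gates in the other mutant. It rose in D542G N against D542G ML by 3.74 ± 0.87 on the log2 scale (edgeR, adjusted p = 0.0156), and the same-numbered pairs gave N over ML ratios of 14.8, 13.6 and 12.5. That call was lost without D542G ML 1, D542G ML 2 or D542G N 3 (adjusted p up to 0.0767). In WT the gate difference was 1.96 ± 0.82 and not called (adjusted p = 0.191). The gate changes of D542G and WT differed by 1.79 ± 1.13, which was not called (edgeR interaction, adjusted p = 0.606). D542G N minus WT N was 2.85 ± 0.83, not called by edgeR (adjusted p = 0.0872) and called by DESeq2 (0.00391), by limma-voom (0.00193), by edgeR with only those groups fitted (0.0299) and without WT ML 1 (0.00217).

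Among facilitative glucose transporters Slc2a1 remained the highest. Per kb of exon it stood at 57.8 CPM in Y541S N, 40.4 in D542G N and 51.4 in WT N, while Slc2a4 stood at 27.7, 9.59 and 1.33 CPM per kb. Slc2a4 was next after Slc2a1 in Y541S N, the third in D542G N, after Slc2a8, and the fifth in WT N. Of the 9 other transporters tested, 1 was called in Y541S N minus Y541S ML and the same 1 in Y541S N minus D542G N. This was Slc2a13, which carries myo-inositol, at 5.45 ± 0.78 (edgeR, adjusted p = 0.000937) and 4.59 ± 0.75 (0.00806), and it did not pass against WT N (2.79 ± 0.69, adjusted p = 0.0695). Of 23 other genes of insulin signalling and GLUT4 traffic, none was called against WT N, and 1 was called lower against D542G N. This was Tbc1d1, a brake on GLUT4 traffic, at −1.48 ± 0.28 (edgeR, adjusted p = 0.0167). Against Y541S ML, 1 was called lower, Sort1, which encodes the sorting receptor sortilin, at −2.60 ± 0.58 (edgeR, adjusted p = 0.0141).

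Slc2a4 is best known from fat and muscle, so markers of those tissues were summed. The 10 adipocyte markers summed to 361 to 822 CPM in Y541S N. Their range was 240 to 438 CPM for D542G N, and for WT N it was 349 to 679 CPM. Most of the Y541S N sum was Fabp4 and Pnpla2, with means of 418 and 130 CPM. Retn and Plin1 were at 0 in Y541S N. Lipe had no count in any library, so it cannot tell the groups apart. The 8 skeletal muscle markers summed to 1.29 to 11.2 CPM in Y541S N. Their range was 5.06 to 11.7 CPM for D542G N, and for WT N it was 9.78 to 22.1 CPM. Myh4 was at 0 in Y541S N. Acta1 had no count in any library and Myh1 had none in the N gate, so they cannot tell the N groups apart. None of the adipocyte or muscle markers was called in Y541S N minus D542G N or WT N.

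**Figure D2:**
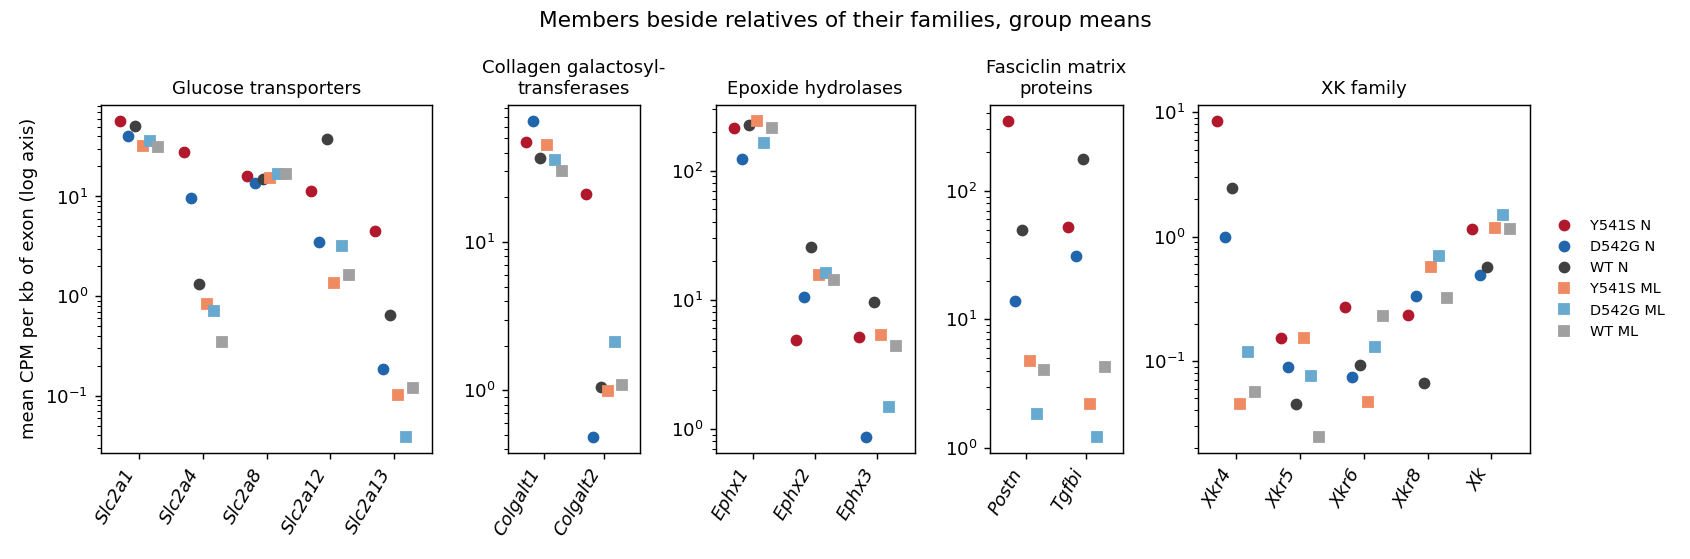
Group means per kb of exon, in CPM on a log axis, for members and relatives of their families, with circles for N and squares for ML groups. Slc2a4, Colgalt2, Postn and Xkr4 have Y541S N as the highest of the 6 groups and Ephx2 has it as the lowest, while Colgalt1, Ephx1, Slc2a1 and Slc2a8 lie within a narrower range.

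Cck (ENSMUSG00000032532, chromosome 9, 121489824–121495694, − strand) encodes cholecystokinin, a peptide hormone of gut and brain. Its level was 189, 301 and 76.0 CPM in Y541S N, 10.8, 21 and 19.7 CPM in D542G N, and 6.01, 9.23 and 8.44 CPM in WT N. In ML it was 71.1, 303 and 81.2 CPM in Y541S, 51.7, 64.7 and 88.4 CPM in D542G, and 140, 95.6 and 75.6 CPM in WT. In D542G and WT every N library of Cck lay below every ML library, and in Y541S the gates overlapped. The Y541S N mean of 189 ± 113 CPM (SD, n = 3) was 11 times the D542G N mean of 17.2 ± 5.52 CPM and 23.9 times the WT N mean of 7.89 ± 1.68 CPM, but 1.24 times the Y541S ML mean of 152 ± 131 CPM. Library 2 of Y541S was the highest in both gates, and it is also the one with the high sum of luminal progenitor and milk genes in both gates, 23690 CPM in N and 23602 CPM in ML; the part of this in Cck was not tested. Without library 2, Y541S N still held 189 and 76.0 CPM, above all D542G N and WT N libraries.

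Cck fell in WT N against WT ML, by 3.72 on the log2 scale (SE 0.60, edgeR, adjusted p = 0.0064), and this call held in all 25 alternatives (adjusted p 5.12e-09 to 0.0497), −3.76 without WT N 3 included. It also fell in D542G N against D542G ML, with −1.99 ± 0.56 (adjusted p = 0.0378), a call lost when any D542G library or WT ML 2 was left out (adjusted p up to 0.146). The same-numbered N over ML ratios were 2.66, 0.995 and 0.936 in Y541S, 0.209, 0.324 and 0.223 in D542G and 0.0429, 0.0966 and 0.112 in WT, so those of D542G and WT did not overlap. The gate change in D542G minus that in WT, 1.72 ± 0.77, was not called (edgeR interaction, adjusted p = 0.445). The difference D542G N minus WT N was 1.12 ± 0.55 and not called (adjusted p = 0.292).

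Cckar, which encodes the first receptor of cholecystokinin, had no count in any of the 3 N groups, and Cckbr, the second receptor, stood at 0.0963 CPM per kb of exon in Y541S N, 0.193 in D542G N and 0.126 in WT N. Of 12 other genes tested that process peptide hormones or encode their receptors, 1 was called higher and 1 lower in Y541S N minus Y541S ML. Tpst1, which sulfates tyrosines as on mature cholecystokinin, was higher by 3.08 ± 0.59 (edgeR, adjusted p = 0.00639), and Scg3, a granule protein, was lower by −6.16 ± 1.48 (0.0212) at under 0.5 CPM per kb in every group. Tpst1 was higher with gate in all genotypes, by 2.75 ± 0.59 in D542G (adjusted p = 0.0102) and 2.81 ± 0.59 in WT (0.0197). None of the 12 was called against D542G N or WT N. Pcsk1 and Pcsk2, convertases of hormone precursors, stood at 0.207 and 0.0804 CPM per kb in Y541S N, against 145 CPM per kb for Cck, while Cpe, a carboxypeptidase of the same path, stood at 81.7.

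**Figure D3:**
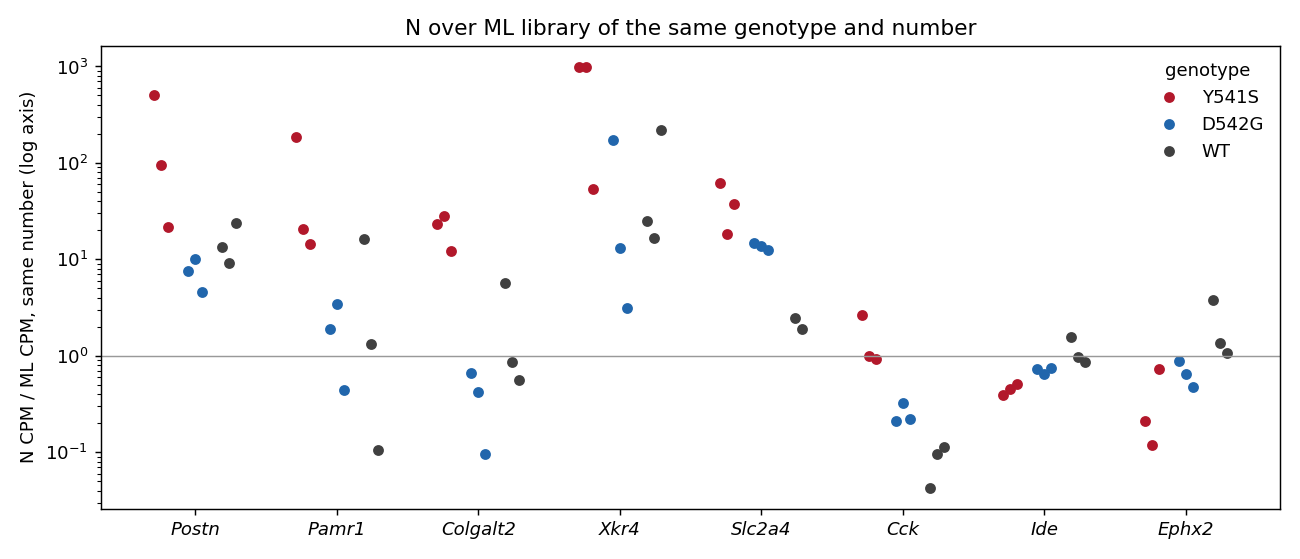
CPM of each N library divided by that of the ML library of the same genotype and number, on a log axis, with 3 pairs per genotype; the WT pair 1 of Slc2a4 is not drawn because its ML count was 0, and the ML counts behind the Xkr4 ratios are 1 to 70. Cck lies between 0.936 and 2.66 in Y541S and below 0.35 in D542G and WT, and Colgalt2 lies above 10 in Y541S and below 1 in D542G.

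Ide (ENSMUSG00000056999, chromosome 19, 37268743–37337852, − strand) encodes insulin-degrading enzyme, a zinc metalloprotease that cuts insulin, amyloid beta and other short peptides. Its level was 89.4, 66.9 and 107 CPM in Y541S N, 243, 195 and 168 CPM in D542G N, and 331, 314 and 331 CPM in WT N. In ML it was 227, 147 and 210 CPM in Y541S, 334, 305 and 224 CPM in D542G, and 210, 324 and 383 CPM in WT. Y541S N was below every other library, and the N groups rose in the order Y541S, D542G, WT with no overlap, whereas the ML groups overlapped. The mean of 87.7 ± 20.1 CPM in Y541S N (SD, n = 3) was 0.434 of the D542G N mean of 202 ± 38.0 CPM, 0.270 of the WT N mean of 325 ± 9.87 CPM and 0.451 of the Y541S ML mean of 194 ± 41.8 CPM. All other groups overlapped their neighbour in the order of levels.

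Ide had the smallest standard errors of the 8 genes, and edgeR did not call it in any comparison without Y541S N. D542G N minus WT N was −0.69 ± 0.25 on the log2 scale (edgeR, adjusted p = 0.166; limma-voom 0.0113), and D542G N minus D542G ML was −0.51 ± 0.25 (adjusted p = 0.229; limma-voom −0.61, adjusted p = 0.00914), with a ratio under 1 in all 3 same-numbered pairs. WT N minus WT ML was 0.09 ± 0.25 (adjusted p = 0.873). Y541S ML minus WT ML was −0.65 ± 0.25 (adjusted p = 0.865, unadjusted p = 0.0211 by edgeR's quasi-likelihood test), with ranges that overlapped. A ribosomal protein pseudogene, Rpl10-ps6, lies within the span of Ide on the same strand.

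Ephx2 (ENSMUSG00000022040, chromosome 14, 66084374–66124500, − strand) encodes soluble epoxide hydrolase, which turns epoxides of fatty acids into diols. It stood at 10.5, 4.35 and 21.1 CPM in Y541S N, 30.2, 26.4 and 21.4 CPM in D542G N, and 89.5, 56.5 and 43.4 CPM in WT N. In ML it was 50, 36.7 and 28.9 CPM in Y541S, 34.0, 40.6 and 45 CPM in D542G, and 23.6, 41.8 and 40.8 CPM in WT. Y541S N was the lowest group, but only just, since Y541S N 3 with 21.1 CPM lay beside D542G N 3 with 21.4 CPM. The Y541S N mean of 12 ± 8.47 CPM (SD, n = 3) was 0.461 of the D542G N mean of 26.0 ± 4.4 CPM, 0.190 of the WT N mean of 63.1 ± 23.8 CPM and 0.311 of the Y541S ML mean of 38.5 ± 10.7 CPM. Of the Y541S N libraries, Y541S N 3 is the one with the high sum of epidermal markers, a sum also high in WT N 1 and WT N 2. Y541S ML 3, with 2016 CPM of these markers, was the lowest of Y541S ML for Ephx2, at 28.9 CPM. The part of epidermal cells in the level of Ephx2 was not tested. Without Y541S N 3 the fitted log2 difference was −1.80 from D542G N, −3.06 from WT N and −2.34 from Y541S ML. With that library these were −1.12, −2.40 and −1.68.

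The gates ran in opposite directions for Ephx2, N being below ML in all 3 Y541S pairs and in all 3 D542G pairs but above ML in all 3 WT pairs. Neither gate comparison outside Y541S was called, with −0.62 ± 0.44 in D542G (edgeR, adjusted p = 0.42) and 0.84 ± 0.44 in WT (0.287; limma-voom 0.0238). The gate change in D542G minus that in WT was −1.45 ± 0.62 and was not called (edgeR interaction, adjusted p = 0.415). D542G N minus WT N was −1.28 ± 0.44, not called by edgeR (adjusted p = 0.139) and called by DESeq2 (0.0441) and limma-voom (0.00152). It was called by edgeR without WT N 3 and Y541S N 3, at −1.49 (adjusted p = 0.0232).

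Ephx1, the microsomal epoxide hydrolase, stood far above Ephx2 per kb of exon, at 214 CPM in Y541S N, 122 in D542G N and 225 in WT N, against 4.83, 10.5 and 25.4 CPM per kb for Ephx2. Of 16 other genes of epoxide and eicosanoid metabolism, 3 were called higher and 1 lower in Y541S N minus Y541S ML (median −0.17, against −0.02 over all genes). Cyp2j9 and Cyp2j6, epoxygenases that make substrates of soluble epoxide hydrolase, were higher by 4.32 ± 0.82 (edgeR, adjusted p = 0.00581) and 2.20 ± 0.44 (0.00746), and Alox15, a lipoxygenase, was lower by −4.14 ± 0.88 (0.0112). None of the 16 was called against D542G N or WT N. Cyp2j6 and Cyp2j9 were also called higher in both D542G N minus D542G ML and WT N minus WT ML.

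**Figure D4:**
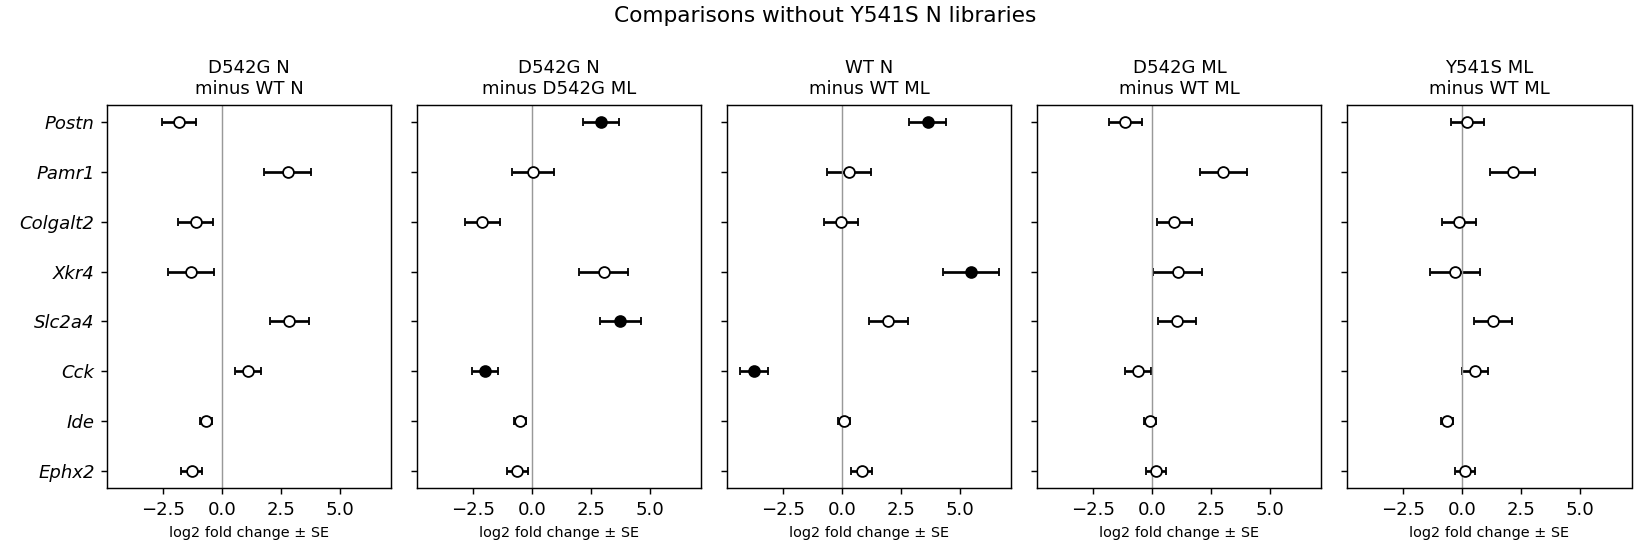
Fitted log2 fold changes with standard errors of the 8 genes in the 5 comparisons that hold no Y541S N library, with filled points for adjusted p under 0.05 by edgeR. Postn and Cck are filled in both gate comparisons, in opposite directions, and the other filled points are Slc2a4 in D542G and Xkr4 in WT.

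Over the comparisons without Y541S N, the counts of members called were as follows. D542G N minus D542G ML called 3 of 8, where 9.2% of all genes tested were called, and WT N minus WT ML called 3 of 8, where 3.53% were called. In D542G N minus WT N 0 of 8 were called, against 2.43% of genes, by edgeR's quasi-likelihood test. In that comparison 5 of the 8 had an unadjusted p under 0.05, as did 18.4% of genes. DESeq2 called 3 of the 8 and 9.42% of genes, and limma-voom called 4 of the 8 and 22.4% of genes. The ranges of the D542G N and WT N libraries did not overlap for 7 of the 8, with Pamr1, Cck and Slc2a4 higher and Colgalt2, Postn, Ide and Ephx2 lower in D542G N, while they did not overlap for 24% of all genes tested. For Cck, Pamr1, Slc2a4, Ide and Ephx2 the D542G N mean lay between those of Y541S N and WT N, and for Colgalt2, Postn and Xkr4 it lay below both.

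Y541S ML minus WT ML called 0 of 18298 genes by edgeR's quasi-likelihood test (0%), with 1010 at an unadjusted p under 0.05, 51 called by DESeq2 and 3 by limma-voom. D542G ML minus WT ML also called 0 (0%), with 1129 at an unadjusted p under 0.05, 101 called by DESeq2 and 93 by limma-voom. Of the 8 genes, Pamr1 and Ide reached an unadjusted p under 0.05 in Y541S ML and Pamr1 did in D542G ML, and DESeq2 and limma-voom called no member in either. These comparisons, like those above, share libraries: WT ML serves 3 of them, and WT N, D542G N and Y541S ML also entered the comparisons that chose the genes. Only D542G ML minus WT ML holds no library used in that choice.

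Some markers of other cell types moved with the members. Acta2, Tagln and Oxtr, of the basal list of 10, were called higher in Y541S N against both D542G N and WT N. Against Y541S ML, 7 of the 10 were called higher. Krt5 and Krt17 had lower means in Y541S N (7008 and 2174 CPM) than in WT N (9065 and 3393 CPM). Both were above D542G N (2397 and 999 CPM). Trp63 had a lower mean in Y541S N than in either group, and the remaining basal markers had a higher one. The basal sums of Y541S N and WT N overlapped. The pericyte list of 7 summed to 309 to 432 CPM in Y541S N and 106 to 109 CPM in D542G N, compared with 119 to 142 CPM in WT N, and Mcam alone was called higher against both. The endothelial list of 8 summed to 226 to 597 CPM in Y541S N and 107 to 167 CPM in D542G N, compared with 120 to 184 CPM in WT N, with none called. The 10 fibroblast markers summed to 276 to 326 CPM in Y541S N and 354 to 466 CPM in D542G N, compared with 85.8 to 180 CPM in WT N. This sum was carried by Dcn, at a mean of 124 CPM in Y541S N, 303 CPM in D542G N and 77.1 CPM in WT N, and without Dcn it was 151 to 205 CPM in Y541S N and 93.9 to 98.8 CPM in D542G N, compared with 37.3 to 80.8 CPM in WT N. Of the 10, 7 had a higher mean in Y541S N than in D542G N (median log2 fold change 0.84) and 10 than in WT N (1.11), Col1a2, a collagen chain, among them with 64.0, 27.1 and 18.1 CPM in Y541S N, D542G N and WT N. Col1a1, another collagen chain of the list, stood at 11.1, 12.6 and 10.7 CPM in the same groups. No fibroblast marker was called against either. Fibroblasts are known to express Postn, and their part in its level was not tested. Sox10, of the Schwann and neural list of 7 and among the genes most like Cck, was called higher in Y541S N against both D542G N and WT N. Its mean was 127 CPM in Y541S N, 10.3 CPM in D542G N and 16.3 CPM in WT N. In ML it was 122 CPM in Y541S, 78.5 CPM in D542G and 61.1 CPM in WT. Ngfr and Mbp, of the same list, had lower means in Y541S N (2.14 and 62.1 CPM) than in D542G N (5.74 and 126 CPM) and WT N (4.70 and 91.6 CPM). The list had a median log2 fold change of 0.95 against D542G N and 0.30 against WT N. Of the N groups, Muc1, of the luminal list, was called higher and Mbp lower against D542G N alone. Most of the luminal list went the other way from Muc1, with a lower mean in Y541S N than in D542G N (median log2 fold change −0.61). Muc1 stood at 9.34, 80.2 and 18.3 CPM in Y541S N, highest in Y541S N 2, the library high in milk genes. The hormone-sensing luminal list of 9 summed to 375 to 769 CPM in Y541S N and 1542 to 1713 CPM in D542G N, with no overlap. In WT N that sum was 415, 470 and 4948 CPM, the last in WT N 3. None of the 9 was called against D542G N or WT N. The part of these cell types in the levels of the members was not tested.

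As a description over the 18 libraries, which share gate and genotype, the genes most like each member were found by Pearson r on log2(CPM + 1) among 11813 protein-coding genes. Postn was most like Lgr5 (r = 0.98), Clmp (0.975) and 6330403K07Rik (0.97), and Xkr4 like Scn7a (0.978), Rcn3 (0.967) and 6330403K07Rik (0.964). Slc2a4 was most like Csrp1 (0.977), Fzd7 (0.965) and Ltbp2 (0.963), and Cck like Paqr6 (0.913), Sox10 (0.907) and Sntg2 (0.887). With the 3 Y541S N libraries left out, the first gene of each stayed close, with r = 0.968 for Lgr5, 0.953 for Scn7a, 0.95 for Csrp1 and 0.912 for Paqr6. Pamr1 was most like Ppp2r2b (0.939), Khdrbs3 (0.915) and Serpinf1 (0.915), and Colgalt2 like Scp2 (0.92), Kcnmb1 (0.91) and Mxra8 (0.905). Over the 15 other libraries these were 0.786, 0.827 and 0.611 for Pamr1 and 0.624, 0.287 and 0.451 for Colgalt2. Ide was most like Polr3c (0.882), Ulk3 (0.862) and Vps36 (0.859), and Ephx2 like Cyb561d1 (0.915), Mpp5 (0.899) and Grhl1 (0.878). Over the 15 other libraries these were 0.579, 0.55 and 0.64 for Ide and 0.678, 0.746 and 0.639 for Ephx2, so the likeness of Pamr1, Colgalt2, Ide and Ephx2 rested more on Y541S N than that of the other genes.

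Genes next to the members on the chromosome were looked at as well. Of 15 tested protein-coding neighbours, none was called in Y541S N minus WT N or minus D542G N, and 5 were called in Y541S N minus Y541S ML. Fjx1 beside Pamr1 was higher by 4.24 (edgeR, adjusted p = 0.0106) and Rgl1 beside Colgalt2 by 3.92 (0.00244). Trak1 beside Cck was lower, at −0.87 (0.0413), as were Cldn7 beside Slc2a4 at −2.82 (0.0455) and Ptk2b beside Ephx2 at −1.12 (0.0373).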

How the data were processed

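The deposited tables hold whole-number read counts per gene, made by the authors; the genome build was GRCm38, per the submitters' processing notes, while the sources used here name no aligner, counting tool, annotation or strand setting. Libraries came from cDNA by Nextera XT, per the labels' protocols. Identifiers were matched to GENCODE M21 (52489 of 52636, or 99.7%), which gave symbols, coordinates and exon lengths. The tests used edgeR 4.0.16 in R 4.3.3. The filter was filterByExpr (minimum count 10, minimum total 15), which left 18298 genes, and scaling was by TMM (factors 0.85 to 1.1). A quasi-likelihood model of the 18 libraries held the 6 group means, leaving 12 residual degrees of freedom (biological coefficient of variation 0.652). P-values were adjusted by Benjamini-Hochberg over all genes tested in a comparison, and genes under 0.05 are called. The steps were tested on simulated data. Depth was 34797778 to 49507144 counts per library. Limits on counts of 0 use 3 counts and cover counting error only.

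The members and the gene lists were chosen with earlier results of these data known. Named genes are the 8 members, the 3 genes most like each by Pearson r (average log2 CPM of at least 1), up to 3 called genes per list with the smallest p (1 listed gene is not reported here), and all neighbours called; Xkr5, Xkr6, Xkr8, Tgfbi, Colgalt1, Ephx1, Slc2a1, Slc2a8, Cckar, Cckbr, Pcsk1, Pcsk2, Cpe, Fbln2, Fbln5, Fkbp10, P3h3, Dcn, Col1a2, Sox10, Muc1 and Mbp were named after their values were seen. Lists covered glucose transporters, insulin signalling and GLUT4 traffic, collagen modification, matricellular proteins, epoxide and eicosanoid enzymes, peptide hormone processing, the XK family, and markers of 12 cell types. Sums of hormone-sensing luminal markers (375 to 769 CPM in Y541S N), leukocyte markers (19.1 to 56.4 CPM) and Schwann cell markers (150 to 234 CPM) were also taken. Krt5, Krt17, Trp63, Notch3, Fabp4, Pnpla2 and Bsg were likewise named after their values were seen.

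Alternatives were RLE scaling, no filter, a fit of the compared groups alone, a replicate block, limma-voom with quality weights (limma 3.58.1), DESeq2 1.42.0 and leaving out each library. The labels do not tie numbers to animals. For deviations from the group means, N and ML libraries of a genotype that share a number had r of 0.168 to 0.556 (9 pairs). N and ML libraries of a genotype with different numbers had r of −0.456 to 0.193. Between genotypes within a gate, differently numbered libraries had r of −0.438 to 0.632, so r alone does not settle the pairing. Within each genotype, gates were matched by number for the ratios and for the replicate block. With the replicate block all 6 gate calls of members held (adjusted p 0.00348 to 0.0436).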

Additional observations from a re-analysis of the deposited data

Results flagged for a closer look

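Colgalt2 moved in opposite directions between the gates in the mutants. All 3 Y541S N libraries were above all 3 Y541S ML libraries, and all 3 D542G N libraries were below all 3 D542G ML libraries, so that the gate change (N minus ML) in Y541S minus that in D542G was 6.52 on the log2 scale. Without D542G ML 3 that difference was 5.46, and the D542G gate change was −1.06 in place of −2.11. Ephx2 did so between Y541S and WT: all 3 Y541S N libraries were below all 3 Y541S ML libraries and all 3 WT N libraries were above all 3 WT ML libraries, with a difference of −2.52, which was −3.18 without Y541S N 3 and −2.12 without Y541S N 2. Neither difference was tested, since the Y541S gate comparison chose the genes. Groups of 3 libraries are too small for a check on single outlying values.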

How the results depend on the processing

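Of 1000 values from alternatives in comparisons without Y541S N, 931 kept their direction and their side of the threshold, 25 lost a call, 15 gained one and 29 changed sign, none of the last from a called value. In the comparisons that chose the genes, 595 of 600 fitted differences stayed within 1 SD. The count of genes called moved most, and the cause was not tested. In D542G N minus WT N (444 genes) it was 277 with no filter, 124 with the compared groups alone, 4096 by limma-voom, 1724 by DESeq2, 1834 without WT N 3 and Y541S N 3 (a setting chosen after seeing the data) and 92 to 1342 with each library left out. In D542G N minus D542G ML (1684) these were 3551 with the groups alone, 5862, 3187, 2849 and 702 to 2545, and in WT N minus WT ML (646) they were 16, 5167, 2078, 3311 and 157 to 2965. In Y541S N minus WT N (208) they were 0 (edgeR, with 1402 at an unadjusted p under 0.05), 1931, 1069, 1899 and 48 to 646, and 134 with the replicate block. In Y541S N minus D542G N (261) they were 654, 1221, 1136, 563 and 56 to 501. Y541S N minus Y541S ML (1272) gave 2595 by limma-voom, 2506 by DESeq2 and 571 to 2045 with each library left out. Y541S ML minus WT ML gave 3 and 51 genes and D542G ML minus WT ML 93 and 101 by limma-voom and DESeq2, and 0 to 1 with each library left out.

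Of the 8 genes, D542G N minus WT N called 1 with the groups alone and 1 without WT N 3 and Y541S N 3, 4 by limma-voom, 3 by DESeq2 and 0 to 1 with each library left out. D542G N minus D542G ML called 5 by limma-voom and 5 by DESeq2, and 0 to 3 with each library left out. WT N minus WT ML called 1 with the groups alone and 1 to 3 with each library left out, and the ML comparisons called 0 throughout. The sign of these values changed. With each library left out, the gate difference of Pamr1 was −0.38 to 1.19 in D542G and −0.53 to 1.25 in WT, that of Colgalt2 in WT −0.54 to 0.94 (0.38 with the replicate block, 0.20 by limma-voom) and that of Ide in WT −0.12 to 0.28. In Y541S ML minus WT ML the ranges were −0.45 to 0.89 for Cck, −0.62 to 0.86 for Colgalt2, −1.12 to 0.76 for Postn, −2.43 to 0.49 for Xkr4 and −0.11 to 0.29 for Ephx2, and limma-voom gave 0.03 for Colgalt2, −0.17 for Postn and −0.15 for Ephx2. In D542G ML minus WT ML they were −0.11 to 1.95 for Colgalt2, −0.30 to 0.12 for Ide and −0.05 to 0.31 for Ephx2, and limma-voom gave −0.86 for Xkr4 and −0.03 for Ephx2. The replicate block changed no call of a member. Genotypes within a gate share only numbers (r = −0.543 to 0.298 in same-numbered pairs). In ML libraries Xkr4 rests on 1 to 70 counts, which limits its gate differences.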
